A study of Mus musculus with 4 samples.

Results

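Collagen genes were followed in ureteric bud and collecting duct cells sorted from newborn mice in which the (pro)renin receptor gene, Atp6ap2, was targeted. The members were all genes whose mapped mouse symbol is Col, a number, the letter a and a number, and 38 of the 16358 gene symbols on the array met this rule through 59 probes. They were sorted into 8 basement membrane collagens (the 6 chains of type IV, with Col15a1 and Col18a1), 11 fibrillar collagens of connective tissue and 19 others. The cells came from postnatal day 1 mice of HoxB7CreEGFP+; PRR flox/flox or CreEGFP+ PRR+/+ genotype, where PRR is the receptor. All groups thus carried the Cre and green fluorescent protein transgene, and the receptor gene was floxed in the knockout and wild type in the controls. The HoxB7 promoter, active in the ureteric bud and the collecting ducts that grow from it, drives Cre and the fluorescent protein, and the fluorescent cells were collected by flow sorting.

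RNA of pooled cells was hybridised to 4 two-colour whole-genome arrays from 0.5 µg per labelling reaction. On the arrays KO_vs_WT 1 and KO_vs_WT 2 the knockout was labelled with Cy5, and the wild-type pool of that number with Cy3. On WT_self 1 and WT_self 2 wild-type pool 1 or pool 2 carried both dyes. The titles name the genotypes the other way round, and the descriptions swap pool 1 and pool 2 between the self arrays. Each channel was grouped by its source name, and every direction between knockout and wild type would turn if the titles were right. How many animals a pool holds, and whether the 2 knockout hybridisations used separate pools, was not stated in the labels. The p-values thus measure only the spread between arrays. In wild type that spread lies between arrays of 2 pools, and in the knockout it may be technical.

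Collagens are proteins of 3 chains wound into a helix outside the cell. Type IV chains assemble into the sheet on which an epithelium such as the collecting duct rests, while types XV and XVIII are found in the basement membrane zone. Fibrillar collagens, led by types I and III, form the cables of connective tissue and are made mainly by stromal cells, fibroblasts and pericytes, which lie around the ducts. The genes of type IV chains lie in pairs, head to head. In the RefSeq promoter table (GRCm38.p6) the annotated starts of Col4a1 and Col4a2 lay on opposite strands of chromosome 8, 21 bases apart, and those of Col4a5 and Col4a6 lay 1343 bases apart on chromosome X.

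The promoters of 4 members are shown because the results turn on these genes: Col1a2, Col3a1 and Col7a1 differed between the wild-type pools, and Col18a1 is a basement membrane collagen whose knockout values lay above the wild-type values on its brightest probe, though not on a second one. They were chosen after the values were seen. Each sequence holds the 150 bases before the annotated start, read 5′ to 3′ on the strand of the gene from RefSeq's GRCm38.p6, and no other gene lay in these windows. Capitals mark 3 short motifs, each searched on both strands. The first is TATAAA, the core of the box bound by the TATA-binding protein. The second is CCAAT, which nuclear factor Y and related factors bind. The third is GGGCGG, the core of the binding box of Sp1, which appears here as its reverse complement where it lies on the opposite strand.

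Col1a2, chr6:4505468-4505617, plus strand: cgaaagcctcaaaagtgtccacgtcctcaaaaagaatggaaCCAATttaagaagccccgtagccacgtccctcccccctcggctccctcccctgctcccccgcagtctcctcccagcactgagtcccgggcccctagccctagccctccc
Col3a1, chr1:45311388-45311537, plus strand: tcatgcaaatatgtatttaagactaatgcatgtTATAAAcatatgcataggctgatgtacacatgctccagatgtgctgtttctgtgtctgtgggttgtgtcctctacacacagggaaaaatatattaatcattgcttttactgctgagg
Col7a1, chr9:108953436-108953585, plus strand: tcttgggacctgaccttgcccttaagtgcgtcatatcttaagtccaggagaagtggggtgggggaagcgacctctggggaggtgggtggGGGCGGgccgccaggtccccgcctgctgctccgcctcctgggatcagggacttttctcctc
Col18a1, chr10:77166531-77166680, minus strand: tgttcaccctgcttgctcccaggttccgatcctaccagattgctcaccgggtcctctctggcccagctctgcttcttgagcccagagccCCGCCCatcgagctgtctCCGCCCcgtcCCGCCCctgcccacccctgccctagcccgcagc

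The 4 windows held different motifs. Col1a2 had a CCAAT 109 to 105 bases before its start, Col3a1 a TATAAA 117 to 112 bases before, and Col7a1 a GGGCGG 61 to 56 bases before. Col18a1 had 3 matches to GGGCGG on the opposite strand, the farthest 61 bases before its start. Over the full 250 bases before the start, TATAAA was in 5 of 38 collagen windows (13.2%) and in 12.4% of 32851 windows of all genes. Of the collagen genes on the array 31 had a tabled window, and the 38 windows may also cover collagens with no probe. CCAAT was in 13 of 38 (34.2%) and in 33.8% of all windows. GGGCGG was in 22 of 38 collagen windows (57.9%) and in 32.7% of all windows. These are matches of letters and show no binding.

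Signal differed between the channels. Between 18420 and 22709 of 41174 probes were well above background, the scanner software's own test, in Cy5 of the 4 arrays. In Cy3 the number was 27 on KO_vs_WT 1, whose wild-type channel was therefore nearly empty and enters only through the deposited log ratios, and 14792 to 16499 on the self arrays and 18565 on KO_vs_WT 2. The knockout was therefore compared with wild type in Cy5, across all 4 arrays. Atp6ap2 stood at 8.08 and 7.72 on the log2 scale in the knockout and at 8.37 and 8.51 in wild type, a difference of -0.54 ± 0.17 (SE, n = 2 arrays per genotype, limma adjusted p = 0.800). All 12 markers of the collecting duct and ureteric bud, such as Wnt7b, Aqp2, Ret and Krt19, were measured on all 4 arrays.

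Of the 38 collagens, 28 entered the comparison: 7 basement membrane, 11 fibrillar and 10 others. Entry required that both arrays of a genotype had the probe well above background in Cy5. On all 4 arrays 21 were well above background, 6 entered only through the knockout (Col15a1, Col4a3, Col11a2, Col24a1, Col5a3 and Col6a2) and Col4a5 entered only through wild type. Each of these 7 was well above background on 1 of the 2 arrays of the other genotype. Of all genes tested, 2478 entered only through the knockout and 217 only through wild type. Among genes with a symbol the numbers were 792 and 144. The 10 left out were Col4a6, Col6a1, Col6a6, Col8a2, Col10a1, Col17a1, Col19a1, Col23a1, Col25a1 and Col28a1, of which 6 were not well above background in any usable channel. Col6a1, a chain of the beaded filaments of type VI, fell on a dark patch of WT_self 1 and could not be compared. Col4a6, a basement membrane chain, was well above background in Cy5 of KO_vs_WT 2 alone.

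No collagen passed the test of knockout against wild type in Cy5 (limma, Benjamini-Hochberg adjusted p under 0.05). The same held for all 15959 genes tested, of which 0% were called. At an unadjusted p under 0.05 there were 669 genes, 496 higher and 173 lower in the knockout, and 3 of them were collagens. The fitted difference was above 0 for 18 of 28 collagens and below 0 for 10, against 8827 and 7132 of all genes. All collagens have a gene symbol, and of the 10416 tested genes with a symbol 5118 were above 0 and 5298 below. Both knockout arrays lay above both wild-type arrays for 6 collagens, where 22.5% of all genes did so, and below both for another 6, where 17.1% of all genes did so. Among genes with a symbol 2061 lay above both and 2094 below both. The counts of 6 are near the background. Leaving out WT_self 1, which carried pool 1, left 1 wild-type array and a test that rests on the spread of the knockout arrays alone. It then called 4250 genes, 14 of the 28 collagens among them. The sign of a single difference also depended on scaling: 20 of the 28 collagens kept it with processed signals and with median centring, and 8 changed it under at least 1 of these. With the deposited log ratios Col2a1, Col4a2 and Col6a2 turned as well. On KO_vs_WT 1 those ratios divide by the nearly empty Cy3 channel, and their signs carry little weight (for Col4a2 the SE was 1.04).

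No chain of type IV collagen, the scaffold of the basement membrane, passed the test, and Col4a4 alone of the 5 measured had a difference above 0. Col4a1, the α1 chain found in nearly every basement membrane (chr8:11198423-11312889), stood at log2 Cy5 levels of 11.06 and 10.86 on the knockout arrays, 11.26 in pool 1 and 10.85 in pool 2. The knockout values lay between those of the pools, and the difference was -0.09 ± 0.18 (SE, n = 2 arrays per genotype, limma adjusted p = 0.897). Its head-to-head partner Col4a2 (chr8:11312805-11449287) stood at 9.62 and 9.58 in the knockout, 9.94 in pool 1 and 9.76 in pool 2. Both knockout values were below both pools, by 0.34 and 0.16 on the log2 scale, and the difference was -0.25 ± 0.12 (limma adjusted p = 0.800). A second measured probe of each gene gave the same sign. Relative to all genes Col4a1 turned to 0.19 with median centring, and Col4a2 turned only with the deposited log ratios (0.34 ± 1.04, SE).

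The chains α3, α4 and α5 make the network of the mature glomerular and distal tubular basement membranes. Col4a4 (chr1:82448419-82587034) stood at 8.68 and 9.03 in the knockout, 8.21 in pool 1 and 8.72 in pool 2. The groups overlapped, since the pool 2 value exceeded one knockout value, and the difference was 0.39 ± 0.23 (limma adjusted p = 0.800). Col4a5, on chromosome X, stood at 6.54 and 6.46 in the knockout and 6.68 and 6.78 in wild type, a difference of -0.23 ± 0.11 (limma adjusted p = 0.800). The knockout values lay below both pools, although this gene was well above background on only 1 of the 2 knockout arrays. Col4a3, at 6.58 and 6.67 in the knockout and 6.67 and 6.69 in wild type, differed by -0.05 ± 0.11.

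The multiplexins, which carry sugar side chains and release the fragments endostatin and restin, had knockout values above both pools on their brightest probes. Col18a1 (chr10:77052178-77166530), the source of endostatin, stood at 13.23 and 13.31 in the knockout, 13.14 in pool 1 and 12.76 in pool 2. The gap to pool 1 was 0.13 and that to pool 2 was 0.51, and the difference was 0.32 ± 0.16 (limma adjusted p = 0.800), which became -0.05 with the scanner software's processed signals. A second probe stood at 11.57 and 11.66 in the knockout, 11.74 in pool 1 and 11.31 in pool 2, so there the knockout lay between the pools, with a difference of 0.09. Col15a1 stood at 6.78 and 6.82 in the knockout and 6.65 and 6.53 in wild type, a difference of 0.21 ± 0.12 (limma adjusted p = 0.800) that was -0.08 with median centring. It was well above background on 1 of 2 wild-type arrays and entered through the knockout, where it was the higher. Over the 7 basement membrane collagens the median difference of knockout minus wild type was -0.05 on the log2 scale, with 3 above 0 and 4 below. The median over all genes was 0.02.

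**Figure D1:**
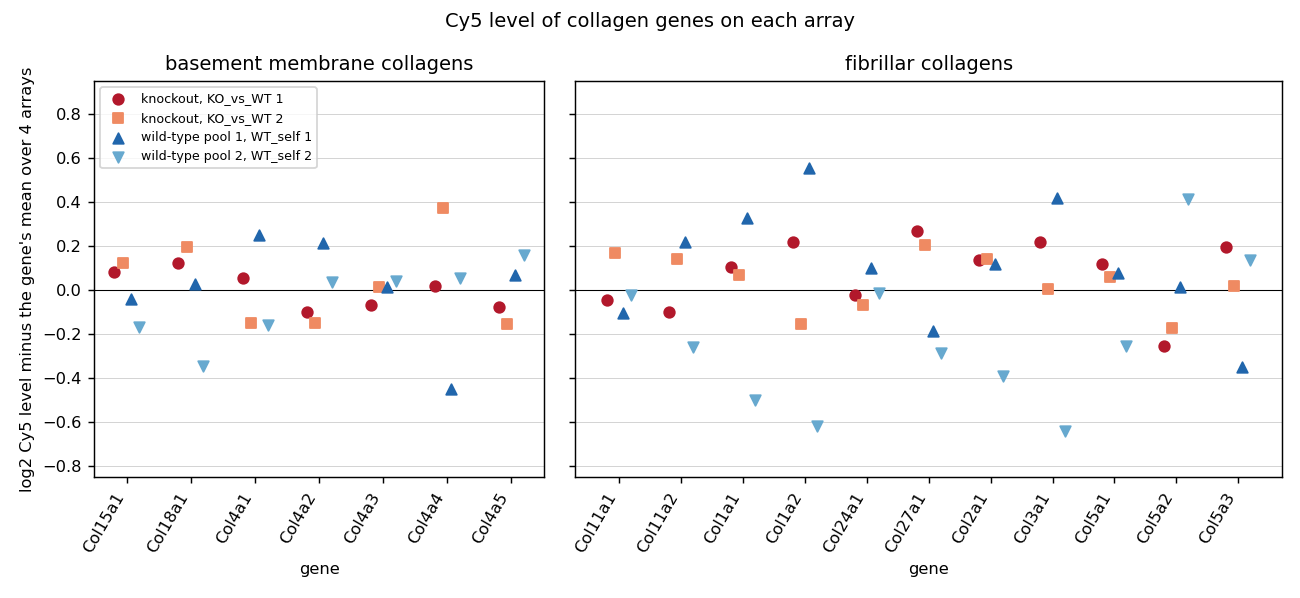
Log2 Cy5 level of each tested basement membrane collagen (left) and fibrillar collagen (right) on each of the 4 arrays, drawn as the distance from the gene's own mean over the arrays. Circles and squares are the knockout arrays, upward and downward triangles the arrays of wild-type pool 1 and pool 2. For Col1a1, Col1a2 and Col3a1 the knockout arrays lie between a high pool 1 and a low pool 2, and for Col27a1 they lie above both pools.

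Among fibrillar collagens the type I and type III chains, the main cable proteins of stroma, were high in pool 1, low in pool 2 and between the pools in the knockout. Col1a2, the α2 chain of type I (chr6:4505618-4541543), stood at 10.75 and 10.37 in the knockout, 11.08 in pool 1 and 9.91 in pool 2. The knockout mean was 0.52 below pool 1 and 0.65 above pool 2. Col1a1, the α1 chain (chr11:94936224-94953042), stood at 7.86 and 7.83 in the knockout, 8.09 in pool 1 and 7.26 in pool 2, so the knockout was 0.24 below pool 1 and 0.59 above pool 2. Col3a1 (chr1:45311538-45349706) stood at 8.43 and 8.21 in the knockout, 8.63 in pool 1 and 7.57 in pool 2, with gaps of -0.31 and 0.75. The differences from the mean of both pools were 0.06 ± 0.41 for Col1a2, 0.17 ± 0.29 for Col1a1 and 0.22 ± 0.37 for Col3a1 (SE, n = 2 arrays per genotype, limma adjusted p = 0.972, 0.879 and 0.877). For Col1a2 the wild-type arrays lay 1.17 apart and the knockout arrays 0.37, and its difference was -0.12 with processed signals. Leaving out WT_self 2, which carried pool 2, leaves pool 1 alone, so all 3 differences then equal the gaps to pool 1 (-0.24 to -0.52).

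Other fibrillar chains differed from this pattern. Col27a1 (chr4:63214009-63334991), a fibrillar collagen of cartilage, stood at 7.88 and 7.81 in the knockout, 7.42 in pool 1 and 7.32 in pool 2. Both knockout values lay above both pools, and the difference of 0.47 ± 0.11 had an unadjusted p of 0.0103 and a limma adjusted p of 0.800. Col2a1, the main cartilage collagen, stood at 7.30 and 7.31 in the knockout, 7.29 in pool 1 and 6.78 in pool 2, a gap of 0.02 to pool 1 and 0.53 to pool 2, and a difference of 0.27 from wild type. Col5a2, a chain of the type V collagen that is built into type I fibrils, ran the other way at 6.79 and 6.88 in the knockout, 7.06 in pool 1 and 7.46 in pool 2, a difference of -0.43 ± 0.17 (limma adjusted p = 0.800). Its partner chain Col5a1 stood at 7.25 and 7.19 in the knockout, 7.22 in pool 1 and 6.88 in pool 2, and Col5a3 at 6.79 and 6.62 against 6.25 and 6.74, with groups that overlap in both.

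The remaining fibrillar genes differed by less than their error or close to it. Col11a1, a minor cartilage chain, differed by 0.12 ± 0.13 on the brightest probe and by -0.12 on a second probe. Col11a2 differed by 0.04 ± 0.20 (-0.45 with median centring) and Col24a1 by -0.09 ± 0.12, and both were well above background on 1 of 2 wild-type arrays. Over all 11 fibrillar collagens the median difference of knockout minus wild type was 0.17 on the log2 scale, with 9 above 0 and 2 below. Of the 9, Col11a2 and Col5a3 entered the comparison only through the knockout, as did Col24a1 among the 2 below. A median without them was not computed. Against pool 1 alone the median was -0.15 and against pool 2 alone 0.34, so its sign followed the pool. Without WT_self 2 it was -0.15, which is the comparison with pool 1 again.

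Type IX collagen, which sits on the surface of type II fibrils, included the member with the smallest unadjusted p, Col9a1, and that with the third smallest, Col9a2, with Col27a1 between them. Col9a1 (chr1:24177589-24252738) stood at 7.54 and 7.62 in the knockout and at 7.08 and 7.09 in the pools. Both knockout arrays were higher by about the same amount over each pool, 0.50 and 0.49, and the difference was 0.49 ± 0.11 (unadjusted p = 0.00752, limma adjusted p = 0.800). Col9a2 (chr4:121039566-121055325) stood at 7.16 and 7.20 in the knockout, 6.71 in pool 1 and 6.83 in pool 2, a difference of 0.41 ± 0.12 (unadjusted p = 0.0189, limma adjusted p = 0.800). Col9a3 (chr2:180598102-180622192) stood at 8.31 and 8.19 in the knockout, 8.20 in pool 1 and 7.48 in pool 2. It thus exceeded pool 2 by 0.78 and pool 1 by 0.05 only. Col9a1, Col9a2 and Col27a1 are the 3 collagens with an unadjusted p under 0.05. Their signs held with processed signals, median centring and the deposited log ratios. Leaving out 1 array could not turn them, since both knockout values lay above both pools, and a replicate block cannot move a difference. On the brightest probe, signs also held in each of the 11 alternative settings for members with small differences, such as Col4a3, Col11a1 and Col24a1. Of these settings, the replicate block, no filter on dim probes and every probe on its own could not move the brightest probe's difference. A second probe of Col11a1 had the opposite sign (-0.12).

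Among the other collagens, Col26a1 had the most negative difference and Col7a1 resembled the type I chains. Col26a1 (chr5:136741759-136883376), a short collagen with an EMI domain, stood at 10.78 and 10.44 in the knockout, 10.80 in pool 1 and 11.71 in pool 2. Both knockout arrays lay below both pools, but by 0.19 from pool 1 and 1.09 from pool 2, and the difference was -0.64 ± 0.33 (limma adjusted p = 0.800). Col7a1, the anchoring fibril that ties a basement membrane to the stroma (chr9:108953586-108984875), stood at 8.18 and 7.82 in the knockout, 8.20 in pool 1 and 7.10 in pool 2, a difference of 0.35 ± 0.39 (limma adjusted p = 0.833). Col14a1, a fibril-associated collagen, stood at 7.33 and 7.39 against 7.48 and 7.53, a difference of -0.14 ± 0.11. Col16a1 differed by 0.12 ± 0.21, Col8a1 by -0.11 ± 0.21, Col6a2 by -0.06 ± 0.11 and the membrane-spanning Col13a1 by 0.00 ± 0.11, and each of the last 3 changed sign under at least 1 scaling.

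**Figure D2:**
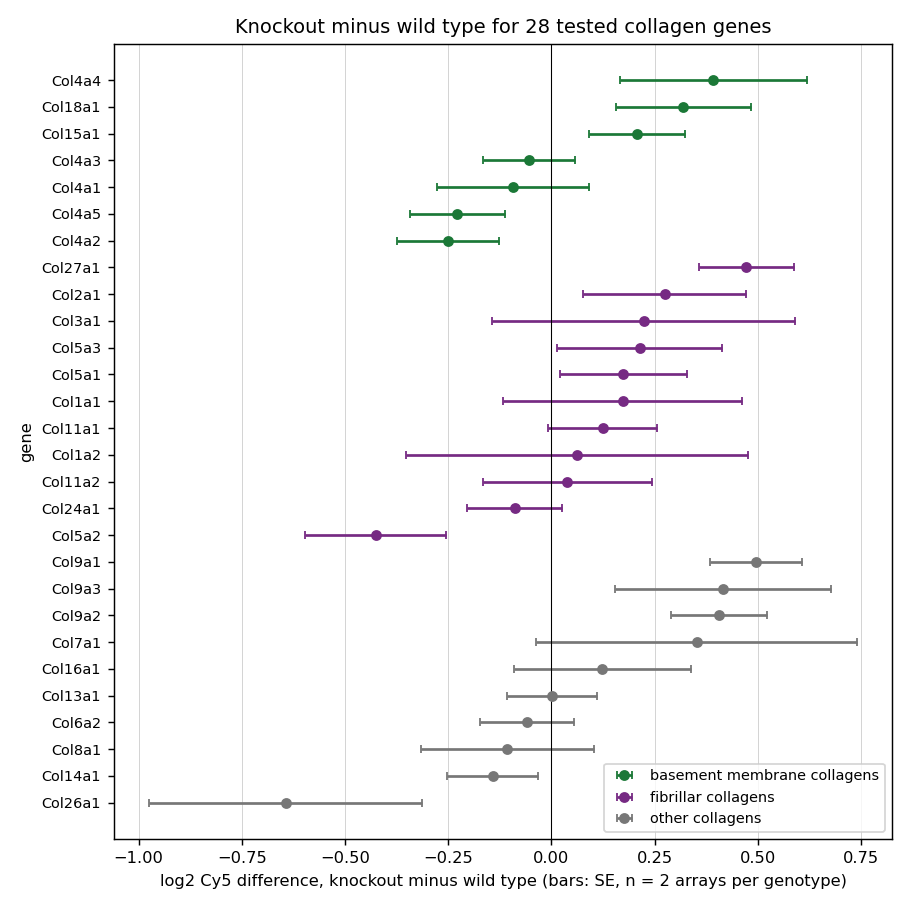
Log2 Cy5 difference of knockout minus wild type for the 28 tested collagens, ordered within class, with bars for the SE from limma (n = 2 arrays per genotype). The values run from -0.64 for Col26a1 to 0.49 for Col9a1, and the widest bars belong to Col1a2 and Col7a1.

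The pools themselves were compared in both dyes, to see how far controls of 1 genotype differ. Each pool is 1 RNA source, so these differences have no test and are described by a fold of at least 1.5. In Cy5 pool 1 exceeded pool 2 by that much for 5 collagens, Col1a1, Col1a2, Col3a1, Col7a1 and Col9a3, where 7.06% of all genes did so. Of these, 3 belong to the 11 fibrillar collagens and none to the 7 basement membrane collagens. Pool 2 exceeded pool 1 for Col26a1 alone, where 6.06% of all genes did so. Of the 10416 tested genes with a symbol, 484 were that much higher in pool 1 and 772 in pool 2. In Cy3, where pool 2 was labelled on 2 arrays and pool 1 on 1, pool 1 was at least 1.5-fold higher for Col1a1, Col1a2 and Col3a1 (2.88% of all genes) and pool 2 for Col26a1 (3.33% of all genes). Among genes with a symbol the numbers in Cy3 were 238 and 454.

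The pool differences of the type I and type III chains were of like size in both dyes. The Cy3 level of Col1a2 was 9.86 in pool 1 and 8.57 in both labellings of pool 2, a 2.44-fold difference beside 2.26-fold in Cy5. Col3a1 stood in Cy3 at 7.80 in pool 1 and 6.97 and 6.99 in pool 2, 1.77-fold beside 2.09-fold in Cy5. Col1a1 stood at 7.38 in pool 1 and 6.65 and 6.67 in pool 2, 1.65-fold beside 1.78-fold, although a second, dimmer probe of this gene differed by 0.12 on the log2 scale in Cy5 where the brightest differed by 0.83. In each of these genes the 2 labellings of pool 2 lay close together and apart from pool 1, and pool 1 stayed the higher in both dyes with processed signals and with median centring.

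Among the other members, Col26a1 and Col5a1 also differed by like amounts in both dyes under the main processing, while several others did not. Col26a1 stood in Cy3 at 9.44 in pool 1 and 10.40 and 10.34 in pool 2, a difference of 0.93 beside 0.90 in Cy5. Col5a1 was 1.26-fold and 1.25-fold higher in pool 1, with a second probe of the opposite sign in Cy5. Col7a1 was 2.14-fold higher in pool 1 in Cy5 and 1.44-fold in Cy3, but with processed signals pool 2 minus pool 1 was -1.74 and -1.79 on the log2 scale. Col9a3 was 1.65-fold and 1.07-fold higher in pool 1, and Col2a1 differed by -0.51 and -0.08. No basement membrane collagen reached 1.5-fold in either dye under the main processing. Col18a1 was 1.30-fold higher in pool 1 in Cy5 and 1.21-fold in Cy3, and Col4a1 1.33-fold and 1.00-fold. Col4a2 changed sign between the dyes (-0.18 and 0.15 for pool 2 minus pool 1). Col4a4 was higher in pool 2 by 0.50 in Cy5 and 0.13 in Cy3. With median centring, relative to all genes, Col4a1, Col4a2 and Col18a1 stood at -0.71, -0.515 and -0.48 in Cy5. In Cy3 they stood at 0.22, 0.27 and 0.13. The other tested members of the class were above 0 in Cy5 there.

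Class medians of pool 2 minus pool 1 were -0.33 in Cy5 and -0.07 in Cy3 for fibrillar collagens, -0.13 and 0.06 for basement membrane collagens, and -0.04 and -0.01 for all genes. The Cy3 medians leave out genes that were not well above background in any of the 3 usable Cy3 channels: Col15a1, Col4a3 and Col4a5 of the basement membrane collagens and Col11a2 of the fibrillar ones. Pool 1 was the higher for 8 of 11 fibrillar collagens in Cy5 and 7 of 10 in Cy3, and for 4 of 7 and 2 of 4 basement membrane collagens. With median centring the Cy5 median of basement membrane collagens turned to 0.17 relative to all genes, and that of fibrillar collagens was -0.15.

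**Figure D3:**
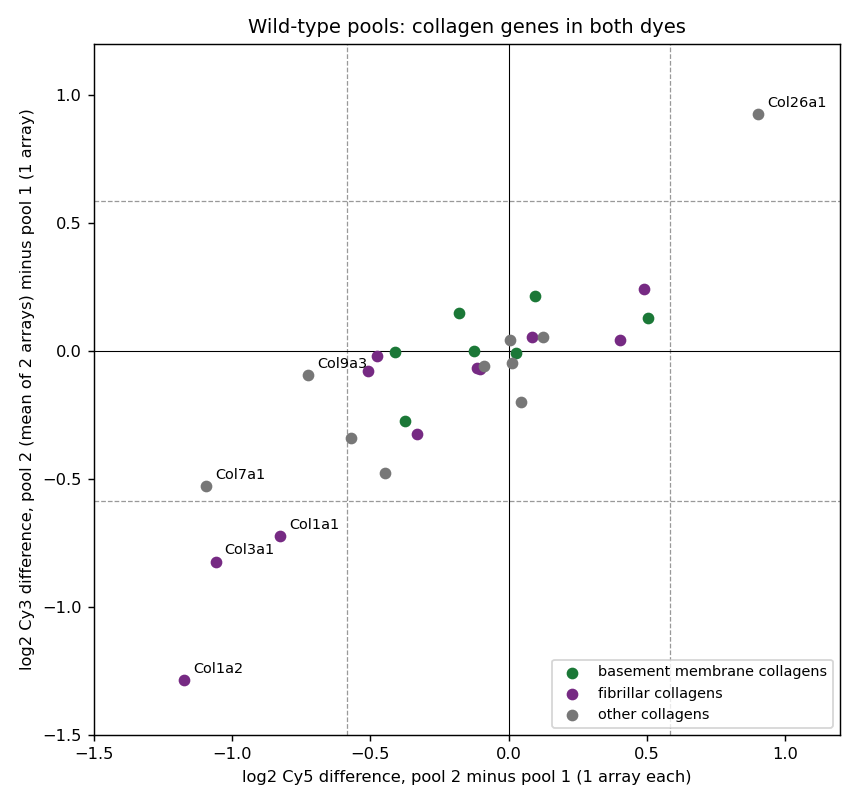
Log2 difference of wild-type pool 2 minus pool 1 for each tested collagen, in Cy5 (horizontal, 1 array each) and Cy3 (vertical, mean of 2 arrays of pool 2 minus 1 array of pool 1). Dashed lines mark a 1.5-fold difference. Col1a2, Col3a1 and Col1a1 lie past the line toward pool 1 in both dyes and Col26a1 past the line toward pool 2, while no basement membrane collagen passes it. Col15a1, Col4a3, Col4a5, Col11a2 and Col6a2 are drawn although they were not well above background in a usable Cy3 channel, so their vertical positions carry little.

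Set against each pool on its own, the knockout was at least 1.5-fold above pool 1 for Col4a4 (0.64 on the log2 scale, 1.09% of all genes) and at least 1.5-fold below it for no collagen (0.52% of all genes). It was at least 1.5-fold above pool 2 for Col1a1, Col1a2, Col3a1, Col7a1 and Col9a3 (6.89% of all genes) and below pool 2 for Col5a2 and Col26a1 (5.5% of all genes). Of the 10416 tested genes with a symbol, 117 were that far above pool 1 and 62 below it. Against pool 2 the numbers were 467 above and 727 below. The comparisons with pool 1, with pool 2 and between the pools share arrays. The median of knockout minus pool 1 was -0.04 for basement membrane collagens, -0.15 for fibrillar collagens and 0.00 for all genes, and that of knockout minus pool 2 was 0.11, 0.34 and 0.05.

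KO_vs_WT 2 is the array with both a usable knockout channel and a usable wild-type channel, so its Cy5 over Cy3 log2 ratio sets the knockout beside pool 2 on 1 slide position. The same ratio on WT_self 2 was taken off for the dye effect. The result was -1.35 for Col26a1, the 1 collagen at least 1.5-fold below pool 2 (5.55% of all genes). None was 1.5-fold above (5.73% of all genes). Of the 10416 tested genes with a symbol, 740 were below and 403 above by that much. The values were 0.56 for Col1a1, 0.50 for Col27a1, 0.50 for Col18a1, 0.49 for Col3a1, 0.49 for Col9a3, 0.45 for Col7a1, 0.42 for Col1a2 and 0.41 for Col4a4, and -0.45 for Col5a2. Over genes measured in a usable Cy3 channel the medians were 0.30 for fibrillar collagens (10 genes), 0.17 for basement membrane collagens (4 genes) and 0.00 for all genes. There is 1 array of each kind, and no test.

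Some marker genes of other cell types differed between the pools in the same direction as the fibrillar collagens. In these bulk samples, fewer cells of a type and less RNA per cell cannot be told apart. Summed intensities are on the linear scale, so the brightest member weighs most: Col1a2 for fibrillar collagens and Acta2 for stroma and pericyte markers. The summed Cy5 intensity of the 11 fibrillar collagens was 2875 and 2448 on the knockout arrays, 3360 in pool 1 and 1783 in pool 2. That of the 10 measured stroma and pericyte markers was 2467, 2050, 2929 and 2136 in the same order, and 6 of the 10 were higher in pool 1 in Cy5 and 4 of the 7 measured in Cy3. Their median of pool 2 minus pool 1 was -0.14 in Cy5 and -0.18 in Cy3. Meis2, a stromal transcription factor named after its values were seen, had the list's largest pool difference, -1.05 in Cy5 and -0.84 in Cy3. The pericyte gene Rgs5 (0.48 and 0.33) and Cspg4 (0.51 and 0.10) were higher in pool 2. Knockout minus wild type had a median of -0.08 over the 10 markers, 4 above 0 and 6 below. The smallest unadjusted p-values were those of Rgs5, at -0.86 ± 0.19, and Cspg4, at -0.58 ± 0.20 (limma adjusted p = 0.800 each). For both, the knockout values lay below both pools. Of the defining markers, Twist2 was well above background on 0 arrays, Foxd1 on 1 and Twist1 on 2.

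Endothelial, podocyte, blood and duct markers were set beside them too. The 6 measured endothelial markers summed to 677 and 515 in the knockout, 801 in pool 1 and 616 in pool 2, and 5 of 6 were higher in pool 1, while Tek was well above background on 0 arrays and Pecam1 on 2. Their knockout minus wild type was above 0 for 1 and below for 5, with a median of -0.15. Cldn5 and Kdr lay below both pools, at -0.48 ± 0.22 and -0.24 ± 0.13 (limma adjusted p = 0.800 each). The podocyte gene Nphs1 was well above background on 0 arrays. Hba-a1, a globin gene of red cells, stood at 13.15 and 12.74 in the knockout, 13.35 in pool 1 and 11.85 in pool 2, the same order as the type I chains, with a pool difference of -1.499 in Cy5 and -1.67 in Cy3. The 3 leukocyte markers summed to 433 and 379, 440 and 372. The 12 duct markers, Krt18 the brightest, summed to 52578 and 55842 in the knockout, 52058 in pool 1 and 44214 in pool 2. Pool 1 was the higher for 11 of 12 in Cy5 and 9 of 12 in Cy3. Knockout minus wild type was above 0 for 10 and below for 2, with a median of 0.16. Wnt7b and Aqp2 had the smallest unadjusted p-values, at 0.45 ± 0.11 and 0.73 ± 0.19 (limma adjusted p = 0.800 each). The part of any of these cells in the collagen differences was not tested.

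Genes that work with collagen gave no call in the knockout either: 0 of 46 measured partner genes passed (limma adjusted p), and the 3 with an unadjusted p under 0.05 that were measured in both genotypes were Serpinh1, Timp2 and Itga1. Of the 14 measured basement membrane partners, the laminins, nidogens and proteoglycans that share the sheet with type IV collagen, 10 were above 0 and 4 below, with a median of 0.15. Between the pools the partners' median of pool 2 minus pool 1 was -0.48 in Cy5 and -0.45 in Cy3, 13 of 14 were higher in pool 1 in Cy5 and 13 of the 13 measured in Cy3, and 5 passed 1.5-fold in Cy5, where 0 of 7 basement membrane collagens did so. Whether the 2 lists differ was not tested. Agrn, the heparan sulphate proteoglycan agrin, stood at 14.31 and 14.36 in the knockout, 14.13 in pool 1 and 13.50 in pool 2, a difference of 0.52 ± 0.23 (limma adjusted p = 0.800). Lamb2, a laminin β chain, stood at 9.52 and 9.57 against 9.42 and 8.94, and Fras1, needed for kidney development, at 10.65 and 10.71 against 10.53 and 10.22. Lama2 was not well above background on either wild-type array.

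Of 17 measured genes of collagen synthesis and crosslinking, 9 were above 0 and 8 below, with a median of 0.05. Serpinh1, the chaperone of procollagen, stood at 10.12 and 9.97 in the knockout and at 10.36 and 10.45 in wild type, a difference of -0.36 ± 0.12 (unadjusted p = 0.0343, limma adjusted p = 0.800), and both knockout values were lower, although with the deposited log ratios it stood at 0.37 relative to all genes. Pcolce, which speeds the trimming of procollagen, stood at 9.49 and 9.33 in the knockout, 9.54 in pool 1 and 10.30 in pool 2, a pool 2 excess as in Col26a1. P4ha1 and P4ha2, prolyl hydroxylase subunits, differed by 0.24 ± 0.14 and 0.23 ± 0.11, although with the deposited log ratios P4ha1 stood at -1.34 relative to all genes.

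Timp2 and Itga1 had the smallest unadjusted p-values among turnover genes and receptors. Timp2, an inhibitor of matrix proteases, stood at 12.72 and 12.86 in the knockout and at 12.24 and 11.93 in wild type, a difference of 0.70 ± 0.16 (unadjusted p = 0.00724, limma adjusted p = 0.800). Mmp14, a membrane-bound collagenase, differed by 0.23 ± 0.12 and Timp3 by 0.27 ± 0.18, while the collagenase Mmp13 was not well above background on either wild-type array. Of the 6 measured turnover genes, 5 were above 0 and 1 below. Itga1, the α1 chain of a collagen-binding integrin, stood at 8.97 and 10.18 on the knockout arrays, 7.84 in pool 1 and 7.25 in pool 2, and both knockout values were higher. Its difference was 2.03 ± 0.45 (unadjusted p = 0.00721, limma adjusted p = 0.800), on the shared array it was 2.53, and its sign held with processed signals and median centring. The other measured receptors were closer, with Ddr1, a collagen-activated kinase, at 0.25 ± 0.14, Lair1 at 0.09 ± 0.13 and the β1 integrin chain Itgb1 at 0.01 ± 0.14.

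Small fibril-binding proteoglycans and other matrix genes had 5 measured members, 2 above 0 and 3 below. Decorin, Dcn, which coats type I fibrils, stood at 7.89 and 7.97 in the knockout, 8.14 in pool 1 and 7.28 in pool 2. It had the order of Col1a1, Col1a2 and Col3a1, with a pool difference of -0.86 in Cy5 and -0.62 in Cy3. Fibronectin, Fn1, differed between pools by -0.37 and -0.06, Fmod by -0.19 and 0.14, and fibrillin 1, Fbn1, which no usable Cy3 channel measured above background, by -0.39 in Cy5. The genes for lumican, biglycan and elastin (Lum, Bgn and Eln), which stromal fibroblasts make, were well above background on 2, 1 and 0 arrays.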

How the data were processed

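Spot values come from Agilent Feature Extraction (version 10.7.3.1), per the file headers. The deposited files hold the intensity of each spot in Cy5 and Cy3 with its local background, the software's processed intensity, and a log10 ratio of Cy5 over Cy3; in every array the series table repeats this deposited log10 ratio (45018 of 45018 spots, within 1e-09). Probe accessions were matched to RefSeq (GRCm38.p6), which named 22951 of 41174 probes. Col12a1, Col20a1, Col22a1, Col6a3, Col6a4 and Col6a5 matched no probe.

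In R 4.3.3 with limma 3.58.1, median Cy5 signals were background-corrected (normexp, offset 50), control spots removed, and the rest quantile normalized and taken to log2. The brightest probe well above background stood for a gene. Flagged spots were left out, as was a dark patch of WT_self 1 (613 spots, of whose brighter ones 27.3% had lost over 2 log2 units). Cy3 was normalized apart, so its levels are not set against Cy5. Knockout and wild type were compared with lmFit and eBayes, two-sided, adjusted by Benjamini-Hochberg over 15959 genes at 0.05. The shared-array ratio used loess. Scripts were tested on simulated data. Array number (2 per genotype) limits the precision.

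Genes were named by rule: each basement membrane and fibrillar collagen measured in any channel, each other collagen measured on both arrays of a genotype, and up to 4 partner or marker genes of a list with the smallest p. Outside this rule, Meis2, Acta2 and Krt18 were named for their values or brightness, and some markers without a tested probe for their detection. The members and lists were chosen with earlier results of these data known, and the dark-patch rule and the spread used to judge the class medians below were set after seeing data.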

Additional observations from a re-analysis of the deposited data

Results flagged for a closer look

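In 4 collagens the knockout arrays stood on opposite sides of the 2 wild-type pools: every knockout array lay below pool 1 and above pool 2, with the pools at least 1.5-fold apart in Cy5. Pool 2 minus pool 1 was -0.83 for Col1a1, -1.17 for Col1a2, -1.06 for Col3a1 and -1.10 for Col7a1 on the log2 scale. The direction of the knockout difference in these genes therefore turned with the pool it was set against. This difference between the pools was not tested, since each pool is 1 RNA source with 1 Cy5 array. The 1.5-fold minimum was chosen for this count, and 6.52% of all tested genes met the same condition in either order of the pools. Groups of 2 arrays are too small for a check of single outlying arrays.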

How the results depend on the processing

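The count of genes called in Cy5 was 0 in each alternative setting except without WT_self replicate 1, and over the settings that leave out 1 array it ran from 0 to 4250. The labels number the arrays of each group 1 and 2, but deviations from the group means did not pair by number (r = 0.039 over genes), and with the replicate block 0 genes were called. The class medians were -0.05 and 0.17 there by construction, since a block cannot move a difference in a balanced design. Median centring in place of quantile normalization moved the median of all genes, knockout minus wild type, by 0.30 (by -0.50 for pool 2 minus pool 1 and 0.54 for knockout minus pool 2), and the deposited log ratios moved it by 0.85, so values under these settings are given relative to that shift. On KO_vs_WT 1 the deposited log ratios divide by the nearly empty Cy3 channel, so signs under them carry little weight. A class median counts as moved past the smaller of 2 spreads: the SD of the class median among arrays (0.307 for basement membrane, 0.0136 for fibrillar) and the median member's SD (0.0925 and 0.255).

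Without 1 array the median of knockout minus wild type ran from -0.042 to 0.11 for basement membrane and from -0.15 to 0.34 for fibrillar collagens. These limits are the medians against pool 1 alone and pool 2 alone. With processed signals the basement membrane medians were -0.21 (knockout minus pool 1), -0.27 (pool 2 minus pool 1) and -0.055 (shared array), and the fibrillar medians 0.34 (knockout minus wild type), -0.060 (minus pool 1), 0.72 (minus pool 2), -0.92 (pool 2 minus pool 1) and 0.59 (shared array). With median centring they were 0.26 (knockout minus pool 2) and 0.17 (pool 2 minus pool 1) for basement membrane and 0.12, -0.18, 0.19, -0.15 and 0.41, in the order above, for fibrillar collagens. With every probe on its own they were -0.15 (minus pool 1) for basement membrane and 0.0085 (minus pool 1), 0.28 (minus pool 2), -0.12 (pool 2 minus pool 1) and 0.22 (shared array) for fibrillar collagens. Cy3 in place of Cy5, with members too dim in Cy3 included, gave 3.29e-05 (the value of one such member, Col15a1) and -0.070 for pool 2 minus pool 1, the shared array with no self array taken off 0.30 for fibrillar collagens, and the deposited log ratios 0.13 for fibrillar knockout minus wild type.

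Single collagens turned sign in knockout minus wild type as follows. Processed signals gave -0.46 for Col13a1, -0.054 for Col18a1, -0.12 for Col1a2 and 0.16 for Col8a1. Median centring gave -0.45 for Col11a2, -0.24 for Col13a1, -0.083 for Col15a1, 0.19 for Col4a1 and -0.0033 for Col5a3. The deposited log ratios gave -0.38 for Col11a2, -1.25 for Col13a1, -0.52 for Col15a1, -0.13 for Col18a1, -0.28 for Col2a1, 0.20 for Col4a1, 0.34 for Col4a2, -0.57 for Col5a3, 0.022 for Col6a2 and 0.32 for Col8a1. Over the settings that leave out 1 array the values ran from -0.20 to 0.28 for Col11a2, -0.020 to 0.022 for Col13a1, -0.16 to 0.41 for Col16a1, -0.24 to 0.59 for Col1a1, -0.52 to 0.65 for Col1a2, -0.31 to 0.75 for Col3a1, -0.30 to 0.11 for Col4a1, -0.031 to 0.46 for Col5a3, -0.20 to 0.90 for Col7a1 and -0.33 to 0.12 for Col8a1. The cause was not tested. Keeping the dark patch turned the sign of 0 of 28 collagens. Dropping the filter on dim probes could not turn any, since the same probe was read after the same normalization. Dim members, near background on most arrays, have values that the signal limits.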
